A study of Mus musculus with 4 samples.

Results

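VL30 is a long terminal repeat (LTR) retrotransposon of the mouse genome, and its reads were followed here through 5 rows of a repeat count table, out of 1445 repeat rows in all. The rows were chosen by name. They are MMVL30-int, which sums the reads over the internal part of all VL30 copies, and the 4 rows whose name starts with RLTR6, the LTR of VL30. Of these, RLTR6_Mm, RLTR6B_Mm and RLTR6C_Mm are LTR variants and RLTR6-int is a second internal row. The family was picked for its many reads and for the higher MMVL30-int count after genistein, so the differences between the groups are given for the 5 rows as a description with no test. All 5 rows passed the filter on low counts, which kept 1118 of the repeat rows.

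The cells were mouse embryonic fibroblasts (MEF cells), which are connective tissue cells cultured from embryos. One group, labelled wild-type, was left untreated, and the other, for which the labels give the treatment in place of a genotype, was exposed to 50 µM genistein, a plant isoflavone, for 24 h. Each group had 2 libraries of total RNA depleted of ribosomal RNA. The study's methods give DMSO as the vehicle of untreated cells in other assays. No source says whether libraries of a group came from separate cultures, so p-values measure only the spread between these libraries.

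VL30 elements carry an LTR at each end, and the upstream LTR holds the promoter and enhancer from which the element is transcribed. They have no open reading frames for working viral proteins, but their RNA can be packaged into particles of murine leukemia virus, a related retrovirus. In mouse fibroblasts VL30 RNA is known to respond to serum, growth factors and low oxygen, and its LTRs hold elements for the AP-1 and CREB transcription factors. VL30 RNA also binds the RNA-binding protein Sfpq, and part of the copies are targets of silencing by the zinc finger protein Zfp809, which recruits Trim28 and the histone methyltransferase Setdb1.

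The libraries held 28591958 to 31464284 counts over genes and repeats, and repeats took 11.97% and 12.5% of them without and 14.6% and 13.6% with genistein. Across kept entries log2 CPM values (counts scaled to library size) correlated at 0.995 within each group and at 0.958 to 0.962 between the groups. Fibroblast marker genes (8 of 10 tested) summed to 428162 to 439977 normalized counts in untreated and 408903 to 418066 in genistein-exposed cells. Thy1 was at 0 and Lum at no more than 9.99. The tested genes differed in direction, with Dcn (log2 fold change 1.08) and Fn1 (0.20) higher after genistein. Lower were Pdgfrb (-0.73), Col1a2 (-0.50), Col3a1 (-0.31), Vim (-0.24), Col1a1 (-0.17) and Pdgfra (-0.16). Blood markers (2 of 5 tested) summed to 192 to 210 and 546 to 570, with Adgre1 and Cd3e at 0. Endothelial markers (1 of 4 tested) summed to 19.0 to 26.5 and 76.0 to 84.0, with Tie1 at 0. Kdr (log2 fold change 1.98) made up most of the endothelial sum, with Pecam1 at up to 9.11 and Cdh5 at up to 0.999. The sum of epithelial markers (2 of 5 tested) fell from 452 to 462 down to 132 to 137, with Epcam at 0. Krt8 (log2 fold change -1.74) made up most of it, beside Krt18 (-2.76). Cdh1 overlapped between the groups at up to 8.10, and Cldn4 was at up to 1.01. Markers of pluripotent cells (2 of 4 tested) summed to 33.0 to 37.1 and 49.7 to 56.7, with Zfp42 at 0. The part of these genes in the values below was not tested.

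MMVL30-int was the ERV row with the most reads of all in both groups. ERV rows are the 624 rows of endogenous retroviruses, of which 519 passed the filter. The normalized read count of MMVL30-int, scaled to the same effective library size, was 34299 in untreated 1 and 35674 in untreated 2. It was 81379 in genistein 1 and 79241 in genistein 2. Both genistein libraries lay far above both untreated libraries, by at least 2.22 times, while the second library of a group was at 1.04 (untreated) and 0.974 times (genistein) the first. The means were 34986 ± 972 and 80310 ± 1512 (SD, n = 2), a log2 fold change of 1.20 (SE 0.04) or 2.30-fold, which was 0.50 on the log2 scale with repeats fitted alone. In bulk RNA a change in the number of cells that express an element and a change in RNA per cell cannot be told apart.

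RLTR6-int, the other internal row, had a smaller difference. Its normalized read count was 14955 and 15046 in untreated cells and 22278 and 22283 after genistein. The groups did not overlap, and the libraries of a group were nearly equal. The log2 fold change was 0.57 (SE 0.05), and it turned to -0.13 when repeats were fitted without genes. It lay 0.63 below that of MMVL30-int. Within the family there were 2.29 and 2.37 reads of MMVL30-int for each read of RLTR6-int in untreated cells and 3.65 and 3.56 after genistein. This ratio is taken within a library and is free of the scaling between libraries.

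The LTR rows differed among themselves as well. RLTR6_Mm, the LTR variant with the most reads, had normalized read counts of 5055 and 5033 in untreated cells and of 9519 and 9592 after genistein. The log2 fold change was 0.92 (SE 0.04), between those of both internal rows. RLTR6B_Mm had 855 and 892 normalized reads in untreated cells and 1919 and 2035 after genistein. Its log2 fold change of 1.18 (SE 0.05) was the nearest to that of MMVL30-int, and the log2 ratio of the 2 rows overlapped between groups, at 5.33 and 5.32 against 5.41 and 5.28. RLTR6C_Mm had few reads, with 66.9 and 74.1 in untreated cells and 103 and 110 after genistein. Its log2 fold change was 0.60 (SE 0.15), the least precise of the family, and it turned to -0.10 with repeats fitted alone.

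**Figure D1:**
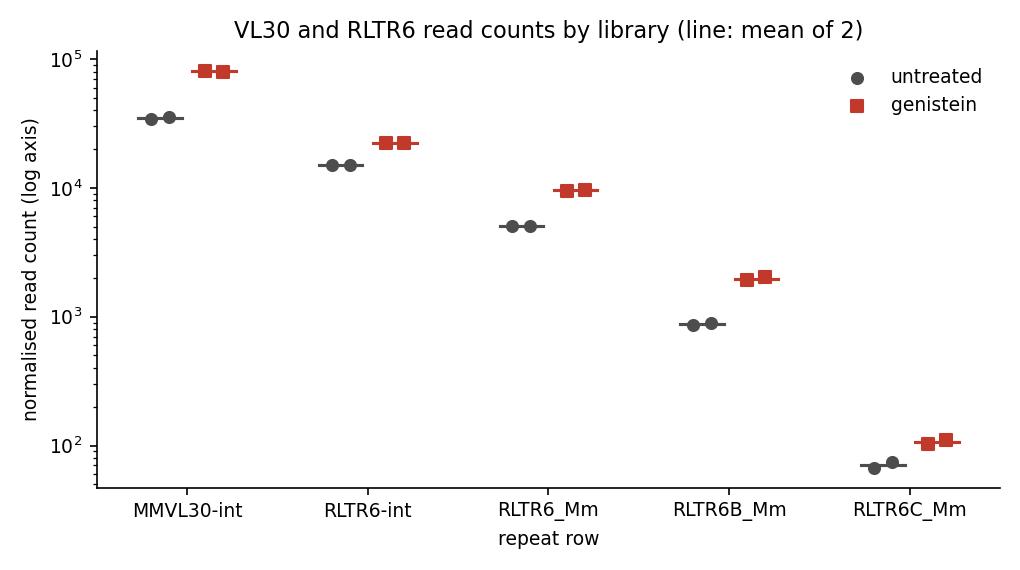
Normalized read count (log axis) of the 5 VL30 and RLTR6 rows in each library, with untreated libraries as circles, genistein libraries as squares and the mean of 2 libraries as a line. Both genistein libraries lie above both untreated libraries in every row, with the widest gap for MMVL30-int (34299 and 35674 against 81379 and 79241) and RLTR6B_Mm, under the scaling over genes and repeats together (with repeats fitted alone RLTR6-int and RLTR6C_Mm turn to -0.13 and -0.10 on the log2 scale).

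Among the LTR variants, RLTR6B_Mm gained on RLTR6_Mm. There were 16.9 and 17.7 reads of RLTR6B_Mm per 100 reads of RLTR6_Mm in untreated cells and 20.2 and 21.2 after genistein. The 3 LTR rows together took 10.8% (95% Wilson interval 10.6% to 11.1%) and 10.6% (10.3% to 10.8%) of the family's reads in untreated cells. In the genistein libraries they took 10.0% (9.85% to 10.2%) and 10.4% (10.2% to 10.5%), a little less. These intervals cover counting error only. Over the same libraries MMVL30-int went from 62.1% and 62.9% of the family's reads to 70.6% and 69.96%, and RLTR6-int from 27.1% and 26.5% to 19.3% and 19.7%. Each row sums copies of different number and length, so read counts of different rows do not compare their levels per copy or per length.

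Of the 5 rows, MMVL30-int and RLTR6B_Mm had a log2 fold change over 1 and a mean normalized count over 100, and both fell under 1, to 0.50 and 0.48, with repeats fitted alone. Of all ERV rows, 3.08% were past these thresholds and an adjusted p under 0.05 with a higher count (16 of 519) and 0.578% with a lower count (3). Over all repeats these shares were 3.67% and 0.358%. The number of higher ERV rows was 33 without untreated 2, and repeats fitted alone gave 2 higher and 10 lower ERV rows in place of 16 higher and 3 lower. In all 5 rows the groups did not overlap and genistein was the higher one, which also held for 82.9% of ERV rows. Nothing is read from these counts, since the same contrast chose the family.

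The 5 rows together held 15.02% (95% Wilson interval 14.9% to 15.1%) and 14.6% (14.5% to 14.7%) of all ERV reads in untreated cells. In the genistein libraries they held 19.8% (19.7% to 19.9%) and 20.1% (19.98% to 20.2%). Within ERV1, the retrovirus family to which VL30 belongs, they held 73.3% and 72.9% of the reads in untreated cells and 81.4% and 81.8% after genistein. Of all counts in a library they made up 0.180% and 0.185% in the untreated group against 0.390% and 0.391% with genistein. The summed family count was 55231 and 56720 normalized reads in untreated cells and 115198 and 113261 after genistein, a log2 fold change of 1.03 (SE 0.04), or 0.33 with repeats fitted alone.

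The ERV class was then compared with and without the family, which shows how much of the class total VL30 carried. All ERV rows summed to 377927 ± 14534 normalized reads in untreated cells and 572255 ± 11831 in the genistein group (SD, n = 2). The 5 VL30 rows made up 29.98% of this difference, and MMVL30-int alone 23.3%. MTD, the next row by difference and a MaLR-type LTR, made up 7.46%. The log2 fold change of the class was 0.60 (SE 0.03), given with no test since it holds the rows chosen on this contrast. Without the VL30 rows the sum rose from 321952 ± 13482 to 458025 ± 10462, by 0.51 (SE 0.03, adjusted p = 3.97e-10 by the quasi-likelihood test of edgeR, with Benjamini-Hochberg adjustment over all entries). Both reversed to -0.10 and -0.19 when repeats were fitted alone. The shares of the difference given above were therefore taken only under the scaling over genes and repeats together.

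**Figure D2:**
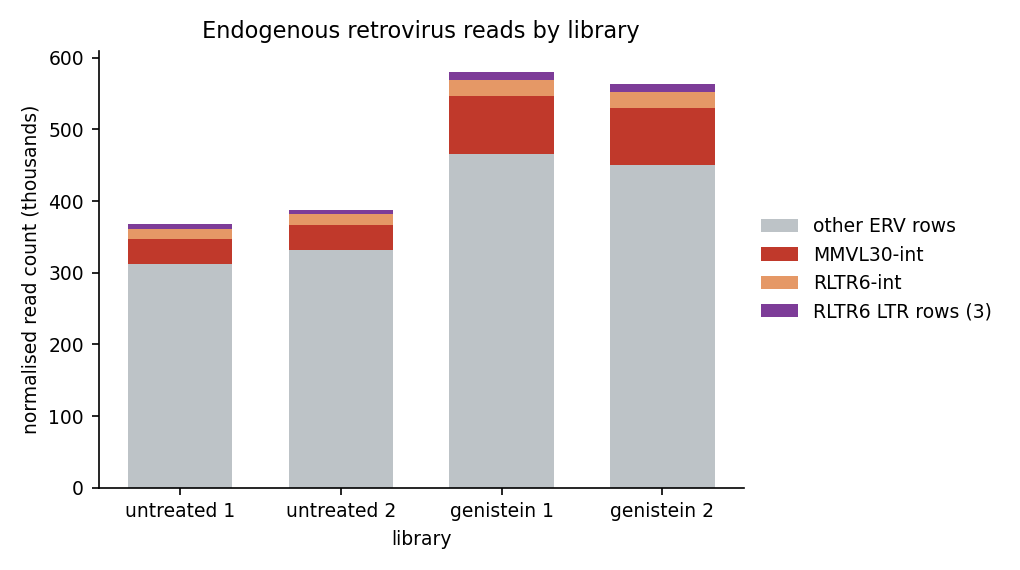
Normalized reads (axis in units of 1000) of all endogenous retrovirus rows in each library, split into MMVL30-int, RLTR6-int, the 3 RLTR6 LTR rows and all other ERV rows. The VL30 parts grow from 55231 and 56720 to 115198 and 113261 normalized reads, and the other ERV rows from 312419 and 331484 to 465423 and 450628, under the scaling over genes and repeats together (with repeats fitted alone the log2 change of all ERV rows turns to -0.10).

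Most repeats were higher with genistein, so the family was set against them. The median log2 fold change was 0.69 over 1118 repeats, 0.65 over 519 ERV rows and -0.03 over 16240 genes. MMVL30-int lay above the repeat median by 0.51, RLTR6B_Mm by 0.49 and RLTR6_Mm by 0.24. RLTR6-int and RLTR6C_Mm lay below the median, at -0.11 and -0.09 from it. By log2 fold change the rows ranked 29 (MMVL30-int), 31 (RLTR6B_Mm), 86 (RLTR6_Mm), 295 (RLTR6C_Mm) and 313 (RLTR6-int) of the 519 ERV rows. Of the 28 ERV rows above MMVL30-int, 4 had a mean normalized count over 100 and 0 over 1000, where 81 ERV rows outside the family were compared.

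**Figure D3:**
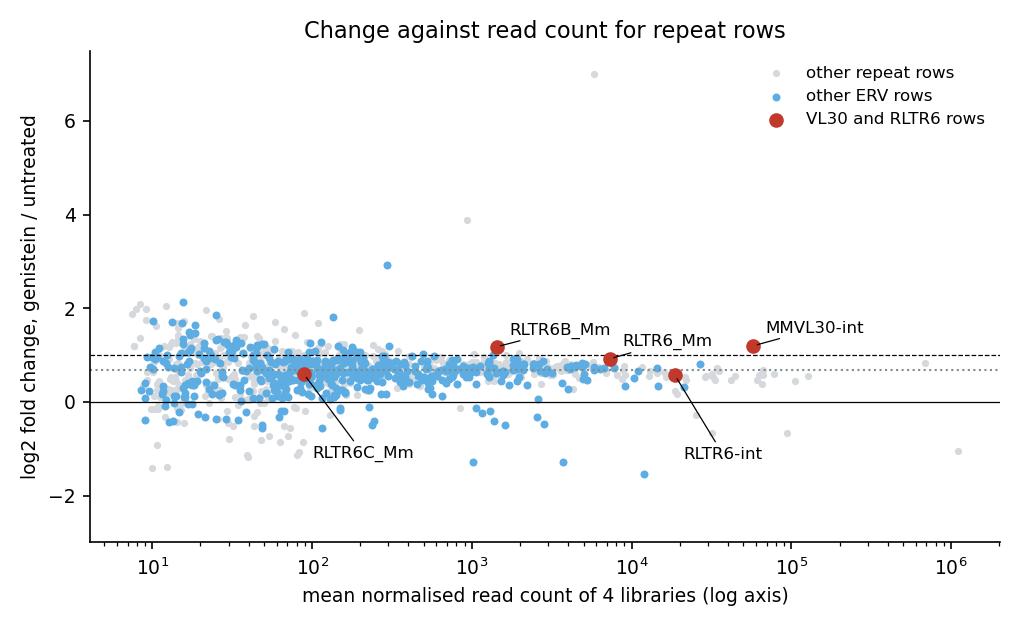
Log2 fold change (genistein over untreated) against the mean normalized read count of 4 libraries (log axis) for each kept repeat row. The dashed line marks a log2 fold change of 1 and the dotted line the median of all repeats, 0.69. MMVL30-int (1.20) stands at the right edge of the ERV rows above the dashed line, while RLTR6-int (0.57) and RLTR6C_Mm (0.60) sit just below the dotted line.

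How the family stood therefore depended on the reference. Against genes, or against genes and repeats together, all 5 rows were higher with genistein. When repeats were fitted alone, which sets the median of all repeats at -0.01, MMVL30-int was at 0.50, RLTR6B_Mm at 0.48 and RLTR6_Mm at 0.23, while RLTR6-int and RLTR6C_Mm turned to -0.13 and -0.10. This fit shifted all 5 rows by nearly the same amount. Their order, with RLTR6-int lowest, was therefore kept by construction and is no check of the ranking. With library totals alone the values were higher, at 1.27 for MMVL30-int and 0.64 for RLTR6-int.

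**Figure D4:**
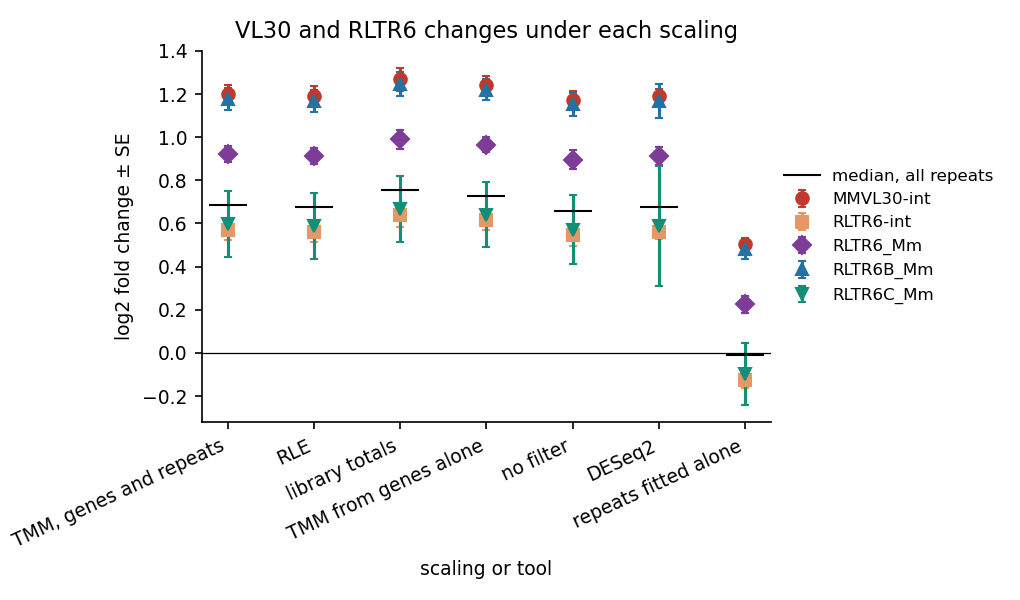
Log2 fold change with its SE for the 5 VL30 and RLTR6 rows under 7 scalings or tools, with the median of all repeats as a black dash. Under 6 of them all 5 rows are above 0, and with repeats fitted alone RLTR6-int (-0.13) and RLTR6C_Mm (-0.10) fall below 0 while MMVL30-int stays at 0.50.

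Of 113 other ERV1 rows outside the family, 86 were tested, and their median log2 fold change was 0.59. A total of 56 rose and 5 fell at an adjusted p under 0.05 (edgeR), beside 74.8% of all ERV rows that rose and 2.5% that fell. With repeats fitted alone 3 of the 86 rose and 19 fell, with a median of -0.10. A total of 4 of the 86 had a larger log2 fold change than MMVL30-int, all with few reads. Among the 37 with a mean normalized count over 100, 2 had a log2 fold change over 1 and 0 reached that of MMVL30-int. The sum of the 86 tested rows was 20051 and 20992 normalized reads in untreated cells and 26274 and 25105 after genistein, so that all of them together had fewer reads than MMVL30-int alone.

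Murine leukemia virus rows are of interest beside VL30 because VL30 RNA can travel in their particles. MuLV-int, the internal row, fell from 1870 and 1908 to 1393 and 1310 normalized reads (log2 fold change -0.48, SE 0.05, adjusted p = 8.1e-08, edgeR). Its LTR row RLTR4_Mm fell by 0.20 on the log2 scale (SE 0.05, adjusted p = 0.0016, edgeR). Both rows had less RNA under each scaling tried, with -1.18 for MuLV-int when repeats were fitted alone. The second internal row, RLTR4_MM-int, had a difference of 0.07 (log2, adjusted p = 0.19 in edgeR) and did not pass. Its call depended on the scaling, with a rise of 0.14 with library totals (adjusted p = 0.014, edgeR) and of 0.12 with factors from genes alone (adjusted p = 0.044, edgeR), and a fall to -0.62 with repeats fitted alone (adjusted p = 3.6e-07, edgeR). It was named here after its values were seen.

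Internal rows and LTR rows of other retrotransposons were set side by side in the same way. IAPEz-int, the internal row of the intracisternal A particle, rose by 0.35 and its LTR rows IAPLTR1_Mm and IAPLTR1a_Mm by 0.38 and 0.37, so internal and LTR rows differed by 0.03 at most, but these turned to -0.35, -0.32 and -0.32 with repeats fitted alone. MERVL-int rose by 0.52 and its LTR MT2_Mm by 0.87, which became -0.18 and 0.18 there. MMETn-int had a log2 fold change of -1.54 and RLTRETN_Mm of -1.28. All of these passed an adjusted p of 0.05 (edgeR), and the largest of their p-values was 0.000155. The differences of internal minus LTR row were -0.35 for MERVL, -0.26 for ETn and -0.28 for MuLV-int with RLTR4_Mm. For MMVL30-int they were 0.28 with RLTR6_Mm, 0.02 with RLTR6B_Mm and 0.60 with RLTR6C_Mm. With RLTR6-int as the internal row in place of MMVL30-int, the difference to RLTR6_Mm was -0.35, so the sign within VL30 depended on the internal row. RLTR45-int and RLTR45 had values of 2.92 and 0.50 (2.21 and -0.19 with repeats fitted alone), but the genistein libraries of RLTR45-int were at 896 and 136 normalized reads. MMERGLN-int fell by 0.23 (adjusted p = 0.0092, edgeR), and RLTR1, set as its LTR row, had too few reads to be tested. Another LTR row of this name, MMERGLN_LTR, was at -0.10 (adjusted p = 0.36, edgeR) and did not pass, and it was chosen after its values were seen.

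The most read LTR rows in untreated cells were MMVL30-int, MTD, IAPEY4_I-int, MMETn-int and RLTR6-int, so that VL30 held 2 of the first 5 places. MTD rose from 19369 ± 1174 to 33863 ± 757 normalized reads (SD, n = 2, log2 fold change 0.81), and IAPEY4_I-int from 18878 ± 218 to 23701 ± 458 (0.33), while repeats fitted alone gave 0.11 and -0.37. MMETn-int fell from 17794 ± 0.824 to 6106 ± 316 (-1.54). The largest adjusted p of these 3 rows was 7.9e-06 (edgeR). MMVL30-int thus kept the first place with genistein, and RLTR6-int moved from place 5 to place 4.

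Genes tied to VL30 by general knowledge were compared next. The first list held transcription factors of the AP-1 and CREB type, which bind elements of the LTR. It also held coactivators of these factors, which do not bind the elements themselves and are part of the counts and the median below. Of 18 listed genes 17 were tested, 12 rose and 4 fell (edgeR, adjusted p under 0.05), where 33.5% of all genes rose and 38.2% fell. The median log2 fold change of the list was 0.28. Atf3 (chromosome 1, 191170296 to 191218039), a stress-induced CREB-type factor, had 126 and 96.3 normalized counts in untreated cells and 368 and 350.2 after genistein (log2 fold change 1.69, SE 0.12, adjusted p = 1.6e-09, edgeR). Fos, a subunit of AP-1, rose from 206 and 219 to 447 and 410 (1.01, SE 0.09), and its partner Jun from 1072 and 1133 to 1473 and 1582 (0.47, SE 0.05). Fosb also rose, by 1.21 (SE 0.33), from 13.0 and 15.9 to 42.2 and 24.3.

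Not all factors of this type went up. Batf3, a partner of Jun, fell from 24.0 and 19.1 to 9.38 and 5.06 normalized counts (-1.55, SE 0.40). Atf1, a close relative of Creb1, and Fosl1, another AP-1 subunit, both had a log2 fold change of -0.70. The largest adjusted p among the 7 named genes of this list was 0.0040, for Fosb (edgeR).

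Serum and growth factor early genes were listed because VL30 responds to the same signals. Of 18 tested genes 5 rose and 10 fell (edgeR), beside 33.5% and 38.2% of all genes, with a median log2 fold change of -0.21. Ccn2 (listed under its older name Ctgf), a secreted matrix protein, fell from 4143 and 3988 to 1487 and 1476 normalized counts (-1.46, SE 0.04, adjusted p = 1.2e-14, edgeR). Myc, a growth-promoting transcription factor, fell by 1.12 on the log2 scale (SE 0.05) and the phosphatase Dusp5 by 1.00 (SE 0.06). Dusp1, a phosphatase that switches off stress kinases, rose from 204 and 241 to 835 and 799 (1.88, SE 0.08), and Nr4a1 and Ier3 by 0.66 and 0.38.

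Genes of the low oxygen response showed a mixed picture as well. Of 20 listed genes 19 were tested, and 5 rose and 11 fell (edgeR), beside 33.5% and 38.2% of all genes, with a median log2 fold change of -0.32. Hif1a, the oxygen-regulated transcription factor, had 6312 and 6174 normalized counts in untreated cells and 6145 and 6376 after genistein, with overlapping groups (0.00, SE 0.03, adjusted p = 0.93, edgeR). Epas1, its relative, rose from 27.0 and 16.9 to 136 and 151 (2.69, SE 0.20), Ndrg1, a stress-response gene, by 1.19, and the growth factor gene Vegfa by 0.67. The glycolytic enzyme gene Ldha fell from 23268 and 22767 to 11318 and 11340 (-1.02, SE 0.05), the kinase gene Pdk1 by 0.92 and Egln3, an oxygen sensor, by 0.86.

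Sfpq and its partners are RNA-binding proteins, part of them in nuclear paraspeckles. Of 10 genes 2 rose and 6 fell (edgeR), beside 33.5% and 38.2% of all genes, with a median log2 fold change of -0.51. Sfpq (chromosome 4, 127021324 to 127037013) fell from 11681 and 11821 to 7636 and 7780 normalized counts (-0.61, SE 0.04, adjusted p = 1.8e-09, edgeR) and its partner Nono by 0.53. Tardbp, Hnrnpk and Matr3, which are abundant nuclear RNA-binding proteins, had log2 fold changes of -0.86, -0.77 and -0.66. Neat1, the long noncoding RNA on which paraspeckles are built, rose from 12042 and 11597 to 22994 and 20450 (0.88, SE 0.06). Rab23, a gene that Sfpq represses, had a difference of 0.06 (log2, adjusted p = 0.32 in edgeR) and did not pass. It was named here after its value was seen.

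The last list held genes of ERV silencing, and most of them had less RNA with genistein. Of 27 genes 1 rose, 20 fell and 6 did not pass (edgeR, where 33.5% and 38.2% of all genes rose and fell), with a median log2 fold change of -0.38 beside -0.03 over all genes. Trim28 (chromosome 7, 12999114 to 13031035), the co-repressor that links zinc finger proteins to Setdb1, fell from 12023 and 11626 to 6178 and 6024 normalized counts (-0.95, SE 0.04, adjusted p = 6.9e-12, edgeR). Suv39h2, a histone H3 lysine 9 methyltransferase, fell from 906 and 937 to 444 and 469.7 (-1.01, SE 0.06), and Chaf1b, a subunit of a histone chaperone at the replication fork, by 0.85. The groups overlapped for neither Trim28 nor Suv39h2.

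Zfp809 (chromosome 9, 22225714 to 22243354), the zinc finger protein that binds the primer binding site of such elements, had 668 and 669 normalized counts in untreated cells and 642 and 633 after genistein (-0.07, SE 0.06, adjusted p = 0.30, edgeR). Setdb1 had 2797 and 2822 in untreated cells and 2694 and 2641 after genistein (-0.07, SE 0.04, adjusted p = 0.072, edgeR). Neither passed the test. Atf7ip (chromosome 6, 136506167 to 136610862), which stabilizes Setdb1 in the nucleus, was the gene of the list that rose, from 1480 and 1605 to 3080 and 2940 (0.97, SE 0.04, adjusted p = 1.1e-11, edgeR).

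**Figure D5:**
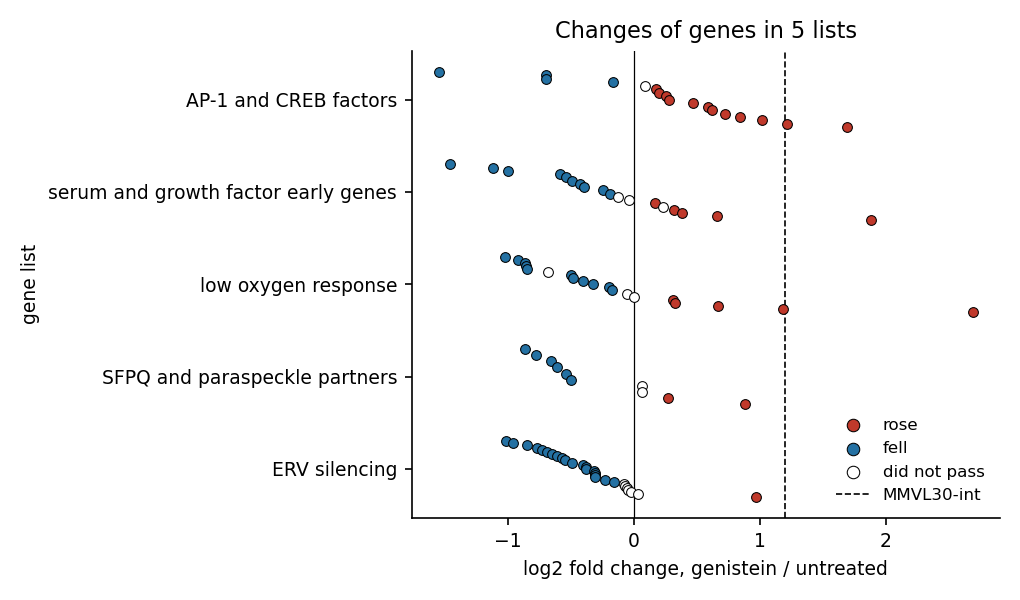
Log2 fold change of each tested gene in 5 lists, as red points for genes that rose, blue for genes that fell and open points for genes that did not pass an adjusted p of 0.05 (edgeR). The dashed line marks MMVL30-int (1.20). Red and blue points are 12 and 4 of 17 for AP-1 and CREB factors and 5 and 10 of 18 for serum and growth factor genes. They are 5 and 11 of 19 for low oxygen, 2 and 6 of 10 for the Sfpq list and 1 and 20 of 27 for ERV silencing. Of all genes 33.5% rose and 38.2% fell.

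Entries with the pattern nearest to that of MMVL30-int over the 4 libraries were then listed, by the Euclidean distance between log2 values centered on their mean. Within the family the nearest was RLTR6B_Mm at a distance of 0.09, followed by RLTR6_Mm at 0.28, RLTR6C_Mm at 0.61 and RLTR6-int at 0.63. Among 291 other ERV rows the nearest were RLTR20A (0.06), RMER17C-int, ERVB3_1-I_MM, MLT1F2 and MLT-int, all with normalized counts of 61.9 to 278 in every library, far below those of MMVL30-int. Of the genes with a symbol, Trafd1 (chromosome 5, 121371725 to 121385632), Abca3 (chromosome 17, 24351950 to 24410201), Nav2 (chromosome 7, 48908716 to 49610090), Eno2 (chromosome 6, 124760053 to 124769673) and Foxo3 (chromosome 10, 42181841 to 42276755) were nearest. Their distances lay from 0.03 to 0.05 and their log2 fold changes from 1.17 to 1.21. Trafd1 dampens innate immune signaling, Abca3 is a lipid transporter, and Foxo3 is a stress-regulated transcription factor. With 4 libraries in 2 groups, the distance is set mainly by the size of the difference between the groups.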

How the data were processed

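Total RNA of untreated and genistein-exposed MEF cells was sequenced in 4 libraries with 150 bp paired ends. The authors trimmed reads, aligned them with STAR to mm10 (GRCm38), kept reads with up to 100 alignments and counted them with TEtranscripts over Gencode genes and RepeatMasker subfamilies. The kit keeps strand, and the strand setting of the counter is not given in the sources used here. The deposited values are raw counts per gene and per repeat subfamily, summed over all copies. Reads with more alignments than the limit were left out, and how many came from VL30 was not analysed here.

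The table held 47937 genes, 1445 repeats and 1 entry with no name (0.00208% to 0.00314% of a library), which was left out. Symbols were found for 47224 genes. Entries were filtered with filterByExpr (16240 genes and 1118 repeats kept), scaled by TMM and fitted with edgeR 4.0.16 in R 4.3.3. Normalized counts are counts divided by the effective library size times its mean, and the SE is the log2 fold change divided by the square root of F. Sums were fitted beside all entries. An exact permutation test of 2 against 2 libraries cannot go below 0.333. The alternatives were scaling, filter, thresholds, DESeq2 1.42.0, a replicate block and each library left out. Replicate numbers were not found to pair the libraries (correlation of deviations -0.03), but 2 pairs are too few to show that pairing is absent. Within a group, libraries differed beyond counting noise, with a chi-square of 5.70 (untreated) and 13.1 (genistein) for each degree of freedom. The fit was tested on simulated data.

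The members, the lists, written from general knowledge, and the rules were chosen with earlier results of these data known. Named were all members, up to 3 genes in each direction of each list with the largest change, 8 fixed genes (Zfp809, Trim28, Setdb1, Sfpq, Nono, Hif1a, Jun, Fos), the 5 most read LTR rows, set pairs of internal and LTR rows, and the 5 ERV rows and 5 genes (mean count over 100, no predicted genes or pseudogenes) nearest in pattern. One gene that this rule names is not reported here. Pattern distances and row ratios on the log2 scale used a pseudocount of 0.5. Gene coordinates are from GENCODE on GRCm38, counted from 1.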

Additional observations from a re-analysis of the deposited data

Results flagged for a closer look

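One entry of the count table had no gene or repeat name and was in no comparison. Its normalized counts were 639 and 681 in the untreated and 926 and 837 in the genistein libraries, 1.34 times higher in the mean, and it stands here because it lies outside the main measurement and above the untreated libraries.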

How the results depend on the processing

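The family sum and MMVL30-int, RLTR6_Mm and RLTR6B_Mm kept their direction under all alternatives, while RLTR6-int and RLTR6C_Mm reversed to -0.13 and -0.10 with repeats fitted alone. There the other values were 0.50 for MMVL30-int, 0.23 for RLTR6_Mm, 0.48 for RLTR6B_Mm, 0.33 for the family sum, and -0.10 and -0.19 for the ERV class with and without VL30. With library totals the values were 1.27, 0.64, 0.99 and 1.25 for MMVL30-int, RLTR6-int, RLTR6_Mm and RLTR6B_Mm and 1.10 for the sum, and with factors from genes alone 1.24, 0.61 and 0.97 for MMVL30-int, RLTR6-int and RLTR6_Mm and 1.07 for the sum. RLTR6-int and RLTR6_Mm were at 0.56 and 0.91 with RLE factors and with DESeq2, and at 0.54 and 0.90 with no filter, where the sum was 1.00. Leaving out each library gave 1.17 to 1.23 for MMVL30-int, 0.57 to 0.58 for RLTR6-int, 0.92 to 0.93 for RLTR6_Mm, 1.13 to 1.22 for RLTR6B_Mm, 0.52 to 0.67 for RLTR6C_Mm and 1.01 to 1.05 for the sum.

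The ERV rows past the thresholds were 16 higher and 3 lower, and the repeats 41 higher and 4 lower. With repeats alone they were 2 and 10, and 4 and 13. With library totals 25 ERV rows and 63 repeats were higher. With a mean count over 10, 63 ERV rows were higher, and 155 repeats were higher and 9 lower. With no fold threshold, 262 ERV rows were higher and 12 lower, and 557 repeats higher and 17 lower. Leaving out each library gave 14 to 33 higher ERV rows and 33 to 75 higher repeats, both highest without untreated 2. The cause was not tested, apart from repeats alone, which centers repeats near 0, and the thresholds, which set the counts by construction.

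The replicate block gave 1.20 for MMVL30-int, 1.03 for the family sum and 0.51 for the ERV class without VL30, with 16 higher ERV rows and 41 higher repeats. Whether same-numbered libraries were paired cannot be settled from 2 pairs. The counts of genes that rose or fell in each list stayed within 1.5 times of those reported under all alternatives run. RLTR6C_Mm is limited by depth, with 67 to 110 raw reads per library.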

Other observations

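Other ERV1 rows with many reads, named here after their values were seen, spread to both sides of 0. RLTR1B-int rose from 1288 and 1350 normalized reads in the untreated to 2590 and 2400 in the genistein libraries (log2 fold change 0.92, SE 0.05, adjusted p = 3.5e-11, edgeR), and the LTR row MLTR14 from 1354 and 1433 to 2416 and 2393 (0.79, SE 0.04). With repeats fitted alone these were 0.22 and 0.09. MER34B-int fell from 1572 and 1561 to 1187 and 1178 (-0.41, SE 0.05, adjusted p = 7.4e-07, edgeR), and was at -1.10 with repeats fitted alone.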
